A study of Mus musculus with 9 samples.

Results

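The loci described here are the neighbourhoods of Skor1, Foxb2, Barx1, Lef1 and Otp, 5 genes for developmental regulators that carry the widest sites of the Phf19 list in mouse embryonic stem cells. They were chosen by the width of their Phf19 sites, so that width is a description and was not tested. A site belongs to a locus when it shares at least 1 base with a fixed 70 kb window (mouse build mm9) around the widest Phf19 site. The 5 windows held 73 of the 22147 sites in the 4 deposited lists: 26 of 4633 Phf19 sites, 23 of 8054 Suz12 sites, 13 of 8280 H3K27me3 sites of control cells, and 11 of 1180 H3K27me3 sites of Phf19-depleted cells.

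The sites come from chromatin immunoprecipitation and sequencing (ChIP-seq) in E14Tg2A, a mouse embryonic stem cell line kept without feeder cells in serum with leukemia inhibitory factor. Phf19 (2 replicates, custom antibody) and Suz12 (1 library) were profiled in wild-type cells. The titles of the Phf19 libraries carry the mark (Hi), which those of Suz12 and H3K27me3 do not. What differs with this mark cannot be told apart from the protein profiled. H3K27me3 was profiled once in control cells with a random hairpin RNA (shRd, genotype labelled wild type) and once in cells depleted of Phf19 by a hairpin against it (shPhf19). The sources used here do not give how far the hairpin lowered Phf19. The Phf19 list holds sites seen in both replicates, and each other list rests on a single library, so no difference between control and depleted cells has a replicate check. The labels give the H3K27me3 antibody of the control library as number 07449 and that of the depleted library as 07450, so antibody and condition cannot be told apart. The lists hold positions only, with no counts or scores, so read depth is unknown and a site that is not listed does not show that the mark is absent.

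Polycomb repressive complex 2 (PRC2) methylates lysine 27 of histone H3, and Suz12 is one of its core subunits. The product, H3K27me3, marks genes kept silent, in embryonic stem cells often genes for transcription factors of later development. Phf19 is a Polycomb-like accessory subunit of PRC2. Its Tudor domain binds histone H3 methylated at lysine 36, and proteins of its family also bind DNA with unmethylated CG dinucleotides through a winged-helix domain.

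Each of the 5 genes encodes a regulator of transcription. Barx1 and Otp are homeobox factors, the first known from stomach and tooth development and the second from neurons of the hypothalamus. Foxb2 is a forkhead-box factor. Lef1 is a DNA-binding partner of beta-catenin in Wnt signalling, and Skor1 is a corepressor of the Ski family that acts with the homeobox factor Lbx1. Gene names follow the definition of the windows: the lists name no genes, and the RefSeq tables used here are on build GRCm38.p6, so no distance from a site to a gene start was computed. In those tables the nearest protein-coding neighbours are Pias1 and Map2k5 for Skor1, Vps13a and Prune2 for Foxb2, Ptpdc1 and Phf2 for Barx1, Rpl34 and Hadh for Lef1, and Tbca and Wdr41 for Otp.

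The promoters of the 5 genes are shown because CG dinucleotides are the letters that Polycomb-like proteins are known to contact. Each run is the 250 bases before the most upstream RefSeq start of the gene (GRCm38.p6), read 5′ to 3′ on the gene's strand, with every CG in capitals. Skor1 and Foxb2 lie on the minus strand, the others on the plus strand.
Skor1: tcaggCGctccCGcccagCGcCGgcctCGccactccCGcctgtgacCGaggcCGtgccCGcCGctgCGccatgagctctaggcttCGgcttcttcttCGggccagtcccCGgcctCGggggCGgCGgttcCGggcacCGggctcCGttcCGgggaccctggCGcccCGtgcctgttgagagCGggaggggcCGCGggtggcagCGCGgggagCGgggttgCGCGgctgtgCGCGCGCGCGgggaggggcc
Foxb2: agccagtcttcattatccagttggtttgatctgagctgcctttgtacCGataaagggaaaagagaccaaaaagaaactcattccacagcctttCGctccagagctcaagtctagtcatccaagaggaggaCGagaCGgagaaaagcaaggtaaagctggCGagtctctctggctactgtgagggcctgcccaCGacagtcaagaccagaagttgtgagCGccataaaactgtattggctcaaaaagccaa
Barx1: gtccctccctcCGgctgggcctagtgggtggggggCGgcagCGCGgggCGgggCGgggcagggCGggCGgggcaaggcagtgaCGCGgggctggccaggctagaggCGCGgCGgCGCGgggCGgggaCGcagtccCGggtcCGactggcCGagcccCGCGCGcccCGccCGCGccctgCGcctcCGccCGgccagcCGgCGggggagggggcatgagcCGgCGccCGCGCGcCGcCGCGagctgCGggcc
Lef1: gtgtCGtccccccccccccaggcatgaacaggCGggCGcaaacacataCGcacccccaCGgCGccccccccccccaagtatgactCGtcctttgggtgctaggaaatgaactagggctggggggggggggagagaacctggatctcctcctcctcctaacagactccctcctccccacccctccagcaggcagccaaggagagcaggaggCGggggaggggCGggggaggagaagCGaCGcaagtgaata
Otp: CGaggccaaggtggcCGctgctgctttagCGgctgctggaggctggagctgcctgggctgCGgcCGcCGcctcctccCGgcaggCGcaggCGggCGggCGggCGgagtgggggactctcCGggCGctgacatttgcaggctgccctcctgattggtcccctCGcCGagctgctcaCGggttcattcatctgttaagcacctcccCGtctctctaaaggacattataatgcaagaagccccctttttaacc

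Only the most upstream start of each gene was counted, and RefSeq gave 3 starts for Skor1 and 4 for Lef1. At these most upstream starts the promoters differed widely in CG content. That of Barx1 held 40 CG dinucleotides at 85.6% G+C, that of Skor1 36 at 78.8%, and that of Otp 18 at 65.2%. The Lef1 promoter held 11 at 66.4%, and that of Foxb2 held 7 at 48.4%, close to the median of 6 over 27018 genes in the table. As many CG dinucleotides as at Barx1, or more, were found in 1.28% of all these promoters. The share was 2.42% for Skor1, 21.6% for Otp, 36.0% for Lef1 and 46.6% for Foxb2.

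Of 4 short motifs searched on both strands, CGCG occurred 10 times at Barx1 and 7 times at Skor1, overlapping copies included. GCGCGC, which contains CGCG, occurred 2 and 3 times there. Neither motif occurs in these windows of Foxb2, Lef1 and Otp; 34.0% of all promoters hold CGCG and 11.0% hold GCGCGC. The motif GAGA, counted with its reverse complement, was found 5 times at Foxb2, 5 times at Lef1, 3 times at Otp and 1 time at Skor1, and 90.8% of promoters hold it. CACGTG, present in 6.04% of promoters, was found in none of the 5. These matches describe the letters and were not set against binding.

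**Figure D1:**
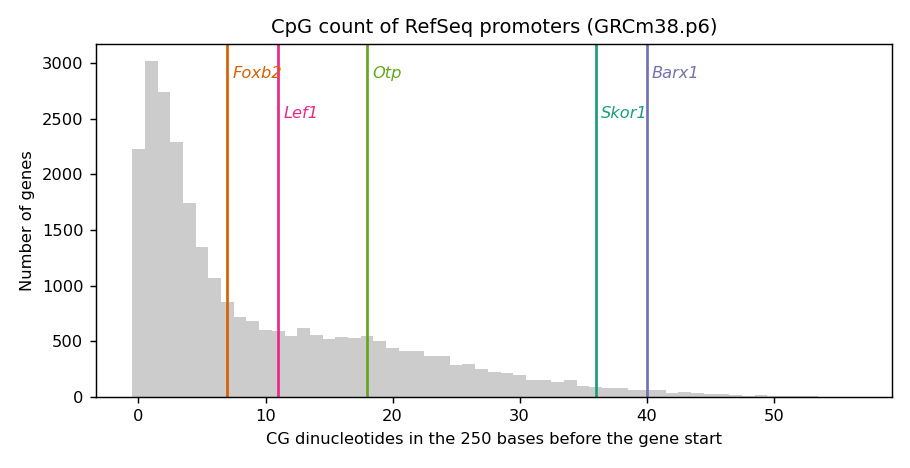
Number of genes (vertical axis) by the count of CG dinucleotides in the 250 bases before the most upstream RefSeq start (horizontal axis); coloured lines mark the 5 genes. Barx1 (40) and Skor1 (36) lie in the upper tail, and Foxb2 (7) lies next to the median of 6.

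The widest Phf19 site of the series was that of Skor1, chr9:62989196-62997531, at 8335 bp. Those of Foxb2 (chr19:16945190-16950439, 5249 bp), Barx1 (chr13:48757722-48762008, 4286 bp), Lef1 (chr3:130811773-130815916, 4143 bp) and Otp (chr13:95643745-95647775, 4030 bp) followed. The first site outside the choice was 3963 bp wide, only 67 bases narrower than that of Otp, against a median of 461 bp over the list. The order depends on where neighbouring sites were split. With Phf19 sites no more than 200 bp apart merged, Skor1 ranked 3, Foxb2 19, Lef1 23, Barx1 48 and Otp 61 in width.

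The loci were built in different ways around these sites. Skor1 and Foxb2 had 1 further Phf19 site each, of 923 bp and 461 bp, so the widest site made up 90.0% and 91.9% of the Phf19 length in the window. Barx1 had 8 further sites, Otp 7 and Lef1 4, and there the widest site made up 45.1%, 44.2% and 49.4%. All sites of a window together covered 5.71 kb at Foxb2 and between 8.39 kb and 9.50 kb at the other 4 loci. Thus Barx1, Lef1 and Otp came close to the 9.26 kb of Skor1 through several shorter sites. At Lef1 the 5 sites ran through 8.79 kb with gaps of 41, 49, 89 and 217 bases. Within the windows, 9 of 21 gaps between neighbouring Phf19 sites were under 200 bases, against 21.2% of 4612 gaps over the list. The list share also counts gaps between distant loci, which a 70 kb window leaves out, so nothing is read from this difference. Of the 26 sites, 25 overlapped Suz12 and 25 overlapped control H3K27me3, against 73.3% and 72.2% of all Phf19 sites. The exception was a 284 bp site of Barx1, chr13:48782193-48782477, with its nearer edge 22.3 kb from the centre of the widest site, where no other list holds a site.

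**Figure D2:**
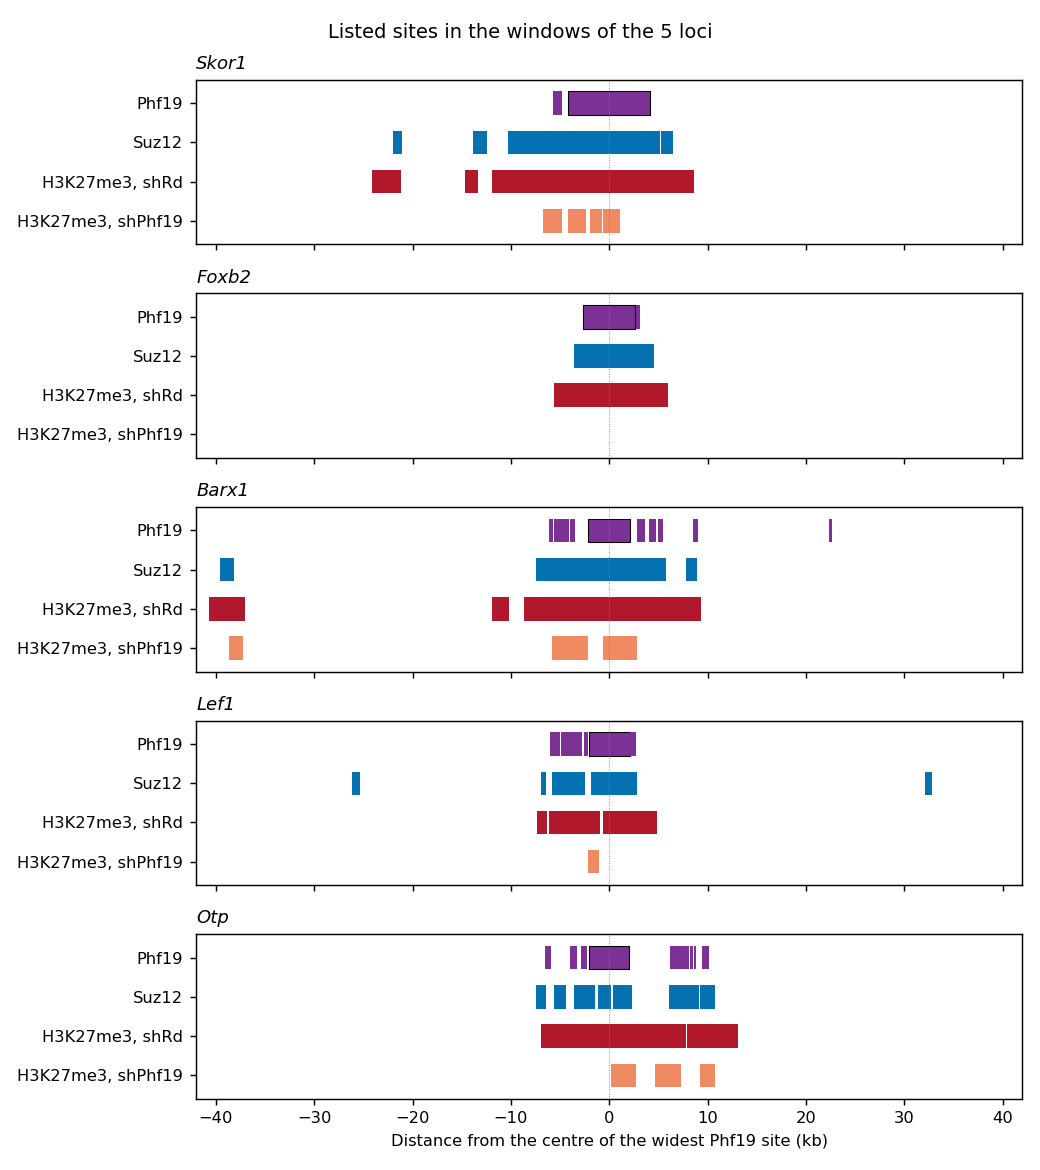
Listed sites in the 5 windows as bars drawn to scale, 1 panel per locus and 1 row per list, by distance from the centre of the widest Phf19 site (kb, outlined). Control H3K27me3 reaches beyond the widest Phf19 site on both sides at every locus, and the shPhf19 row is empty at Foxb2.

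Suz12 overlapped all 5 of the widest Phf19 sites, where 73.3% of all Phf19 sites overlapped it. At Skor1, Foxb2 and Barx1 the Phf19 site lay wholly inside 1 Suz12 site. At Skor1 that Suz12 site (chr9:62988682-62998564, 9882 bp) reached 514 bases beyond Phf19 on one side and 1033 on the other. The widest Phf19 site filled 84.3% of it. At Foxb2 (chr19:16944262-16952398, 8136 bp) the widest Phf19 site filled 64.5%, and at Barx1 (chr13:48752404-48762340, 9936 bp) 43.1%. At Lef1 the Phf19 site began 221 bases before its Suz12 site and filled 84.0% of it. At Otp the Phf19 site ran across 3 Suz12 sites and the gaps between them, so 86.4% of its length lay in Suz12. Over the 1924 Suz12 sites with Phf19 in the whole list, the filled share counts every Phf19 site within a Suz12 site. Its median was 35.0% (interquartile range 22.0 to 54.6) and its 95th percentile 82.0%. The shares at the 5 loci count the widest Phf19 site alone, so the measures differ. The shares at Skor1, Foxb2, Barx1 and Lef1 lay above that median. The share at Otp, 64.5%, pools 3 Suz12 sites, so it cannot be set against a median per Suz12 site. A wide Phf19 site was the criterion of choice, so a high filled share follows in part from it and nothing is read from it.

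The windows held 23 Suz12 sites, from 1 at Foxb2 to 7 at Otp. Those with Phf19, 14 in number, had a median width of 3170 bp, and the 9 without had a median of 896 bp. At Skor1, 4 Suz12 sites lay end to end with gaps of 25, 4 and 30 bases. At Lef1 Suz12 sites of 884 bp and 696 bp stood alone on opposite sides of the widest Phf19 site. Their nearer edges were 25.3 kb and 32.1 kb from its centre, and neither overlapped an H3K27me3 site in either condition.

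Control H3K27me3 also overlapped all 5 of the widest Phf19 sites, against 72.2% of all Phf19 sites. At Skor1 a single site of 20.5 kb (chr9:62981455-63001988) enclosed both Phf19 sites and 4 Suz12 sites, and reached 7741 and 4457 bases beyond the widest Phf19 site. At Barx1 a site of 18.0 kb (chr13:48751190-48769217) enclosed 8 Phf19 sites. At Otp a site of 14.8 kb (chr13:95638810-95653588) was followed after 67 bases by one of 5164 bp. At Foxb2 the mark was listed as 2 sites of 5430 bp and 6215 bp, only 10 bases apart, and the break lay inside the Phf19 site. At Lef1 2 sites of 5207 bp and 5525 bp were parted by 295 bases, again inside the Phf19 site. Control sites covered 35.5% of the Skor1 window, 32.2% at Barx1 and 28.5% at Otp, against 16.8% at Lef1 and 16.6% at Foxb2.

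Only Foxb2 among the 5 loci held no site in the H3K27me3 list of the depleted cells. Of the widest Phf19 sites, 4 of 5 overlapped an shPhf19 H3K27me3 site, where 20.7% of all Phf19 sites did. Among Phf19 sites ranked 6 to 55 by width, 82.0% did, so an unlisted site among 5 is no unusual share for wide sites. The part of the Phf19 site inside shPhf19 sites was 65.8% at Barx1, 56.5% at Skor1, 45.3% at Otp and 24.5% at Lef1. At Foxb2 it was 0%, and the nearest of the 1180 shPhf19 sites was 8.02 Mb away. In control cells the same 5 sites lay 92.9% to 100% inside H3K27me3 sites. All of these values rest on 1 library per condition.

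**Figure D3:**
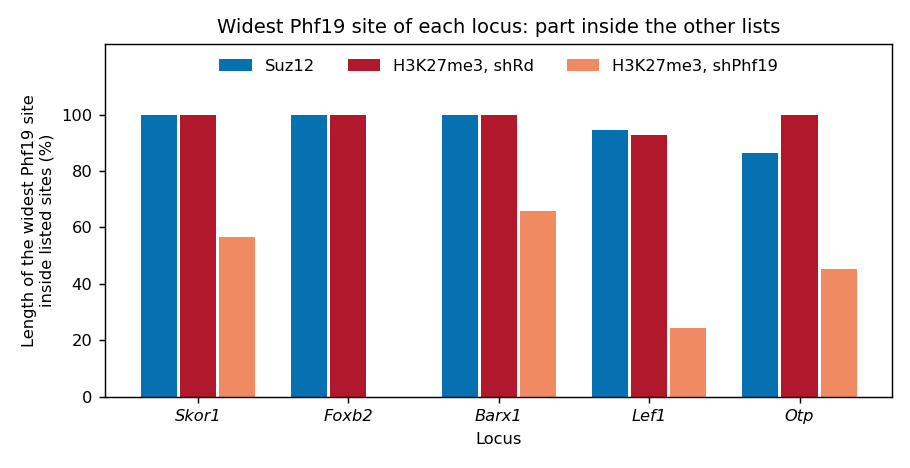
Share of the length of the widest Phf19 site of each locus (percent) that lay inside sites of Suz12, control H3K27me3 (shRd) and H3K27me3 of depleted cells (shPhf19), 1 bar per list. Suz12 and control H3K27me3 covered at least 86.4% at every locus, and shPhf19 sites covered from 0% (Foxb2) to 65.8% (Barx1).

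The remaining H3K27me3 sites had a different place at each locus. At Skor1, 4 shPhf19 sites of 1280 to 2022 bp lay between chr9:62986576 and 62994442. They began before the widest Phf19 site and ended 3089 bases short of its far end, so that end was no longer in a listed site. At Barx1 a site of 3634 bp ended 62 bases before the widest Phf19 site and overlapped 3 shorter Phf19 sites. A second one of 3481 bp covered the far part of the widest site and passed its end.

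At Lef1 a single shPhf19 site of 1073 bp (chr3:130811717-130812790) was left, over the first 1017 bases of the Phf19 site. At Otp 3 sites of 2493, 2634 and 1528 bp remained, the first over the far part of the widest Phf19 site. The other 2 lay over and beside the second group of Phf19 sites, 4.64 kb to 10.8 kb from the centre. Every one of the 11 shPhf19 sites lay on a control H3K27me3 site and on a Suz12 site, and 10 lay on a Phf19 site, against 55.7% over the shPhf19 list. The windows were chosen for their Phf19 sites, so nothing is read from that last difference. The shares of the whole shPhf19 list on control H3K27me3 and on Suz12 were not computed, so nothing is read from those counts either. The one without Phf19 was at the far edge of the Barx1 window (chr13:48721256-48722649), 37.2 kb from the centre at its nearer edge.

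By length, 25.2% of the control H3K27me3 in the windows was inside shPhf19 sites, against 7.02% over the series. On control sites still listed, meaning overlapped by an shPhf19 site, it was 34.2% against 32.9%. The windows were chosen for wide Phf19 sites. Bases with both Phf19 and Suz12 made up 42.6% of their control H3K27me3, against 9.82% over the series. Over all control sites of a window, the share inside shPhf19 sites was 36.4% at Barx1, 33.4% at Otp, 27.4% at Skor1, 9.11% at Lef1 and 0% at Foxb2. Within the windows, shPhf19 sites held 38.2% of the 39.0 kb with both Phf19 and Suz12, 21.1% of the 22.7 kb with Suz12 alone, 19.4% of the 2.30 kb with Phf19 alone and 10.5% of the 27.5 kb with neither. Over the series the 4 classes gave 23.8%, 7.71%, 14.9% and 3.43%, so Suz12 alone and Phf19 alone stood in the opposite order there. On control sites still listed the classes lay closer together over the series, at 43.9%, 36.6%, 37.4% and 22.4%, and in the windows they were 49.7%, 26.2%, 19.4% and 17.3%. The loci differed. At Skor1 the share was 60.9% with both factors, 13.5% with Suz12 alone and 0% with neither, and at Barx1 it was 55.1%, 37.6% and 13.1%. At Otp it was 45.3% and 28.1% and, where neither was listed, 1.87 kb of 6.93 kb. At Lef1 the highest share was with Phf19 alone, 29.8% of 0.793 kb, against 10.9% with both factors and 0% with Suz12 alone. Neighbouring bases are not independent, so these shares describe the lists and carry no interval.

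Of the 13 control H3K27me3 sites in the windows, 6 (46.2%, exact Clopper-Pearson 95% interval 19.2 to 74.9) were still listed, meaning that an shPhf19 site overlapped them. Over the whole control list 8.96% were. Width went along with this: the widest sites of Skor1, Barx1 and Otp, 14.8 to 20.5 kb, were all still listed. Of control sites within 20% of their width, 91.5%, 95.2% and 85.1% were still listed too. Among the 5 sites of 5164 to 6215 bp, those of Foxb2 (2 sites) and the far one of Lef1 were no longer listed, and the other Lef1 site and the shorter Otp site were. For sites of those widths the share over the series lay between 20.4% and 28.4%. All 5 held both Phf19 and Suz12, and for sites of those widths with both factors it lay between 28.3% and 35.3%. The share still listed in the windows was therefore not separated from the width of the sites.

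**Figure D4:**
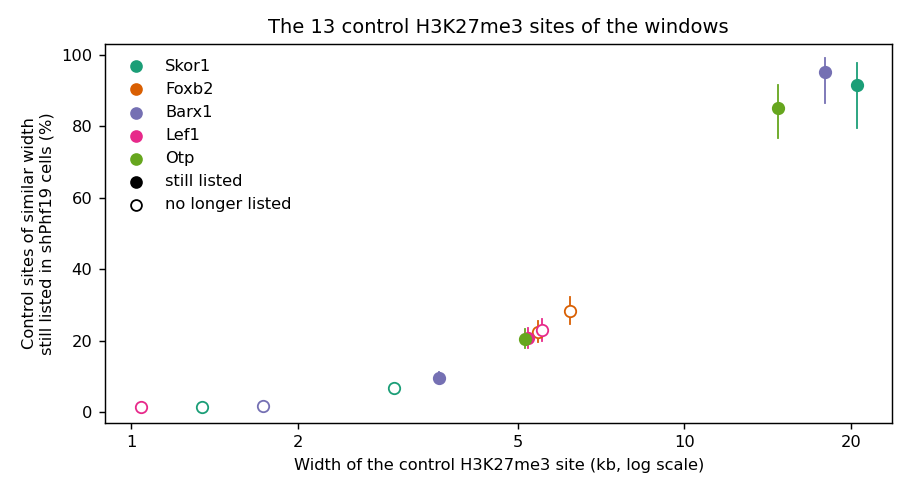
The 13 control H3K27me3 sites of the windows by width (kb, log scale), with the share of all control sites within 20% of that width that were still listed in shPhf19 cells (percent, bars are exact 95% intervals for counting error only). Filled points were themselves still listed and open points were not; the 3 widest, of 14.8 to 20.5 kb, are filled and lie between 85.1% and 95.2%.

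The 8 control sites with Phf19, all of which also held Suz12, included 5 still listed, and the 5 without Phf19 included 1. The 8 were 5164 to 20533 bp wide and the 5 were 1044 to 3604 bp, so Phf19 and width cannot be told apart here. Over the series 492 of 1737 control sites with both factors (28.3%) were still listed, against 8.96% of all control sites. The site still listed without Phf19 was the 3604 bp site at the edge of the Barx1 window (chr13:48719203-48722807), which held Suz12. It reached past the window, and 38.7% of it was inside an shPhf19 site. Over the 6 sites still listed, the part inside shPhf19 sites ran from 20.6% at Lef1 to 39.5% at Barx1, with a median of 34.0%. The median was 34.8% over all 742 control sites still listed (interquartile range 23.6 to 49.4). It was 29.7% (20.8 to 39.8) over the 492 with both factors. Of the 23 Suz12 sites in the windows, 9 overlapped an shPhf19 site, against 11.0% of all Suz12 sites; 8 of those 9 held Phf19.

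Merging control sites no more than 1 kb apart put the breaks at Foxb2, Lef1 and Otp aside. The domains were then 20.5 kb at Skor1, 20.0 kb at Otp, 18.0 kb at Barx1, 12.2 kb at Lef1 and 11.7 kb at Foxb2. Of merged control domains within 20% of the Foxb2 width, 82 of 178 (46.1%, 38.6 to 53.7) were still listed, so domains of this width without an shPhf19 site were about as frequent as those with one. For the Lef1 width the share was 50.6% (42.9 to 58.2). At Lef1, 8.77% of the domain was inside shPhf19 sites, below the interquartile range of 11.7 to 31.1 of the listed domains of similar width. At Skor1, Barx1 and Otp it was 33.2%, 39.5% and 33.3%, above the upper quartiles of 30.2, 28.4 and 30.6 of theirs. The domains of similar width were matched by width alone and not by Phf19 or Suz12, so these differences were not separated from those factors.

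The next widest Phf19 sites of the series served for comparison. Of the 20 sites of width ranks 6 to 25, all overlapped Suz12, 18 overlapped control H3K27me3 and 17 overlapped an shPhf19 site. Of the 50 of ranks 6 to 55, 41 (82.0%, 68.6 to 91.4) overlapped an shPhf19 site, against 4 of the 5 (80.0%, 28.4 to 99.5). The median part inside shPhf19 sites was 45.3% for the 5 and 51.7% for ranks 6 to 55. In ranks 6 to 10 it was 85.0%, with no site below 55.8%. The sites of ranks 6, 13, 46 and 50 overlapped no control H3K27me3 site, yet 55.5% to 85.0% of their length lay inside shPhf19 sites. The rank 6 site, at 85.0%, gave the median of ranks 6 to 10. Those of ranks 6, 13 and 50 lie close together on chr2, so the compared sites are not all independent. The share overlapping shPhf19 was lower among narrower sites, with 54.8% in ranks 56 to 500 and 8.57% in ranks 3001 to 4633, and wider sites also have more bases to meet another site. Foxb2 was one of 10 sites among the 55 widest with no shPhf19 site, and by width the first of them; the next ranked 11. The number of Phf19 sites within 35 kb of the centre was 2 at Skor1 and Foxb2, 5 at Lef1, 8 at Otp and 9 at Barx1, against a median of 6 for ranks 6 to 55 and 2 for the whole list.

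**Figure D5:**
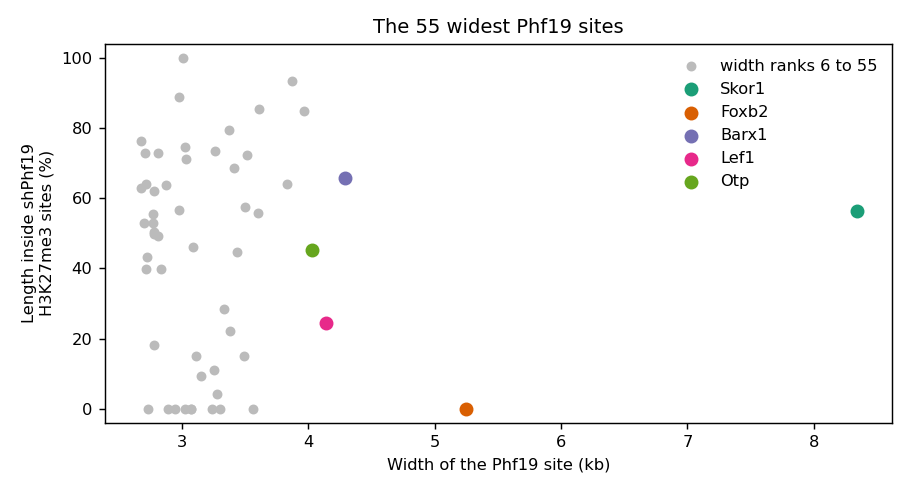
Width of the 55 widest Phf19 sites (kb) against the share of their length inside H3K27me3 sites of shPhf19 cells (percent); each point is 1 site, the 5 loci in colour and ranks 6 to 55 in grey. The 5 span 0% to 65.8%, and ranks 6 to 55 span 0% to 100%.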

How the data were processed

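The deposited files are 4 lists of site positions. Bowtie 0.12.7, MACS 1.4.1 and build mm9 are named per the submitters' processing notes, without their roles; no source used here gives the peak threshold or the control library. Start and end are printed as deposited by the authors, whose counting base (0 or 1) no source gives. The H3K36me3, H3K36me2 and IgG samples were not analysed here. Width was end minus start. Sites overlap when they share at least 1 base. Every Phf19, Suz12 and H3K27me3 site of the 5 windows was counted; those printed by position are the widest Phf19 sites, the sites overlapping them, and others named after their values were seen. Members, windows and comparisons were chosen with earlier results of these data known. Shares of sites carry exact Clopper-Pearson 95% intervals, which cover counting error only and treat neighbouring sites as independent. No test was run, since conditions have 1 library each. Of the gene lists considered, the relatives of the 5 genes and the stem cell markers were not used, since they need an mm9 annotation. All 5 genes matched RefSeq promoters by symbol. Interval code was tested on simulated data. Alternatives were other overlap rules, windows, merging and width minimums. Computations used scipy 1.17.1, pandas 2.3.3 and numpy 2.4.6 under Python 3.11.15, with figures by matplotlib 3.10.9.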

Additional observations from a re-analysis of the deposited data

How the results depend on the processing

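Of 27 alternatives, 22 stayed within 1.5 times the reported count or length ratio, or within the interval of the reported share, and 5 moved beyond that. The length of shPhf19 over control H3K27me3 sites was 15.6% where only sites overlapping the widest Phf19 sites were used, against 25.2%, which follows from leaving out the shPhf19 sites beside them. Leaving out 1 window at a time gave 21.3% (without Barx1) to 28.8% (without Foxb2). The Phf19 sites of the windows numbered 10 instead of 26 when neighbours within 1 kb were merged. The ranking by width, an alternative added after the data were seen, depended most on merging: of the 5 loci, 2 were among the 5 widest with neighbours within 100 bp merged (Skor1 and Foxb2), 1 within 200 bp (Skor1) and 0 within 1 kb, where the highest rank was 15 (Skor1). The control sites still listed ranged from 37.5% (windows of 100 kb to each side) to 55.6% (neighbours within 1 kb merged). The counts of the widest sites overlapping Suz12, control H3K27me3 and shPhf19 were 5, 5 and 4 under each overlap rule. No paired analysis was possible because the lists hold no numbered replicates, and leaving out a Phf19 replicate was not possible with 1 list for both.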

Other observations

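The order of the 5 loci by CG dinucleotides in the promoter (Barx1 40, Skor1 36, Otp 18, Lef1 11, Foxb2 7) was also their order by the part of the widest Phf19 site inside shPhf19 H3K27me3 sites (65.8%, 56.5%, 45.3%, 24.5% and 0%). By the part of the whole control H3K27me3 length in the window, Otp (33.4%) came before Skor1 (27.4%). The widest single control site was also longer at Skor1, Barx1 and Otp (20.5, 18.0 and 14.8 kb) than at Foxb2 and Lef1 (6215 and 5525 bp). The CG counts are those of the most upstream RefSeq start alone, and RefSeq gave 3 starts for Skor1 and 4 for Lef1. No promoter was placed relative to a Phf19 site. These orders were noticed after the values were seen, 5 loci are too few for a correlation, and no relation was tested.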
